A study of Mus musculus with 32 samples.

Results

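Total RNA from mouse lung was compared with and without ribosomal RNA (rRNA) pull-down, in the same 8 mice. The members were 16 of the 32 libraries of the series. They were the RiboZero and the NoSelect library of each of 4 wild-type (WT) and 4 Bmal1 knockout (KO) C57b/6 mice, numbered 3 to 6 in each genotype and paired by mouse name. Bmal1 (Arntl) encodes a core transcription factor of the circadian clock. All mice were bred in-house, between 8 and 18 weeks old and labelled female. Nothing in the labels says more of how the knockout was made. A RiboZero library began with 200 ng of RNA and removed rRNA with the pull-down step of a stranded total RNA kit. A NoSelect library began with 15 ng, skipped the depletion, and was made in 6 replicates that stand as 1 column. Both kinds were amplified with 11 PCR cycles. The preparations therefore differed in input amount and number of preparations as well as in the pull-down, and these cannot be told apart.

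Pull-down depletion removes rRNA by hybridising it to labelled probes that are captured on beads, after which the remaining RNA is cleaned up. It keeps RNAs without a poly(A) tail. These include the spliceosomal small nuclear RNAs (snRNAs), the small nucleolar RNAs (snoRNAs) that guide rRNA modification, their Cajal body relatives (scaRNAs), and the transcripts of RNA polymerase III such as 7SL, 7SK, Y RNA and vault RNA. Mitochondria carry their own rRNAs and a compact set of messenger RNAs made as long precursors from both strands.

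The sequences below belong to the RNAs on which the results turn. They are from the GENCODE M21 annotation of GRCm38, each on its own strand. Gm22513, the most abundant snRNA row, has the sequence of the U1 family, and Rnu2-10 that of U2. The capitals mark the bases of U1 that pair with the 5′ splice site and those of U2 that pair with the branch site.
Gm22513, chr12:54696782-54696945 (+): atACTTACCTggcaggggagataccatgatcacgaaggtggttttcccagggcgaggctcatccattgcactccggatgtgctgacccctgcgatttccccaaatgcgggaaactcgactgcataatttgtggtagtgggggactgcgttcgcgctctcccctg
Rnu2-10, chr11:101658238-101658428 (+): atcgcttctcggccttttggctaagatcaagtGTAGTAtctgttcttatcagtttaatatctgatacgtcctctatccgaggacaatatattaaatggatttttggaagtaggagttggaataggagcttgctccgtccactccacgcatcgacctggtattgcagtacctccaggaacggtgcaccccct

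A pair of near-identical copies is shown because their values differed. How reads were split between them was not tested. Snora73a and Snora73b are H/ACA snoRNAs that differ at 7 of 205 positions. Capitals mark the positions at which they differ.
Snora73a, chr4:132352775-132352979 (-): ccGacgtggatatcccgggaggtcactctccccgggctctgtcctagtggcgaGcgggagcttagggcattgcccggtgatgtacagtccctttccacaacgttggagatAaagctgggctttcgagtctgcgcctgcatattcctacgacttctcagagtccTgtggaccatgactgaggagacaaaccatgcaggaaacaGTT
Snora73b, chr4:132352322-132352526 (-): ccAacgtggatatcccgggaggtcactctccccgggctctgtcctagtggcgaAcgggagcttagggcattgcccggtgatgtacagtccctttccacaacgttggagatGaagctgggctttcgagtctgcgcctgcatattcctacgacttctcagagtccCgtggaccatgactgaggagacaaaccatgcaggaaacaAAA

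The table held Salmon's estimated counts for 41687 rows. Lars2 and a transcript of the Gm42418 locus were left out of all totals. These 2 rows held 67.8% to 71.5% of the counts of a NoSelect library and 0.0335% to 0.0908% of a RiboZero library. Without them the total count was 11628023 to 23483121 in RiboZero and 22009219 to 37100630 in NoSelect. Levels are given as normalised CPM, the counts scaled to this total and by edgeR's TMM factor (CPM), and they are not divided by length. The NoSelect library of KO mouse 6 is labelled liver. Its 8 lung epithelial markers summed to 27910 normalised CPM, against 19480 to 26170 in the other 7 NoSelect libraries. Its 8 hepatocyte markers summed to 22.6, against 9.14 to 21.7 there, and Alb was at 0.467. Both libraries of this mouse also held the Y-linked gene Ddx3y (106.4 and 86.6 normalised CPM, 0 in the other 14) and almost no Xist, against their female label. Arntl was lower in the KO mice (18.1 to 21.4 in RiboZero) than in the WT mice (33.4 to 40.5).

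Of 16825 rows tested with edgeR's quasi-likelihood test with mouse as a block, 675 were called, or 4.01%. A call is an adjusted p under 0.05 (Benjamini-Hochberg over all rows) with a log2 fold change of at least 1 in either direction. RiboZero was higher in 197 rows (1.17%) and lower in 478 (2.84%). By adjusted p alone, 10073 rows differed (59.9%), 5377 higher and 4696 lower. The median log2 fold change, RiboZero over NoSelect, was 0.02, and 89.2% of rows lay within 0.5 of 0. The direction of a called row was shared by all 8 mice in 583 of 675 rows.

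**Figure D1:**
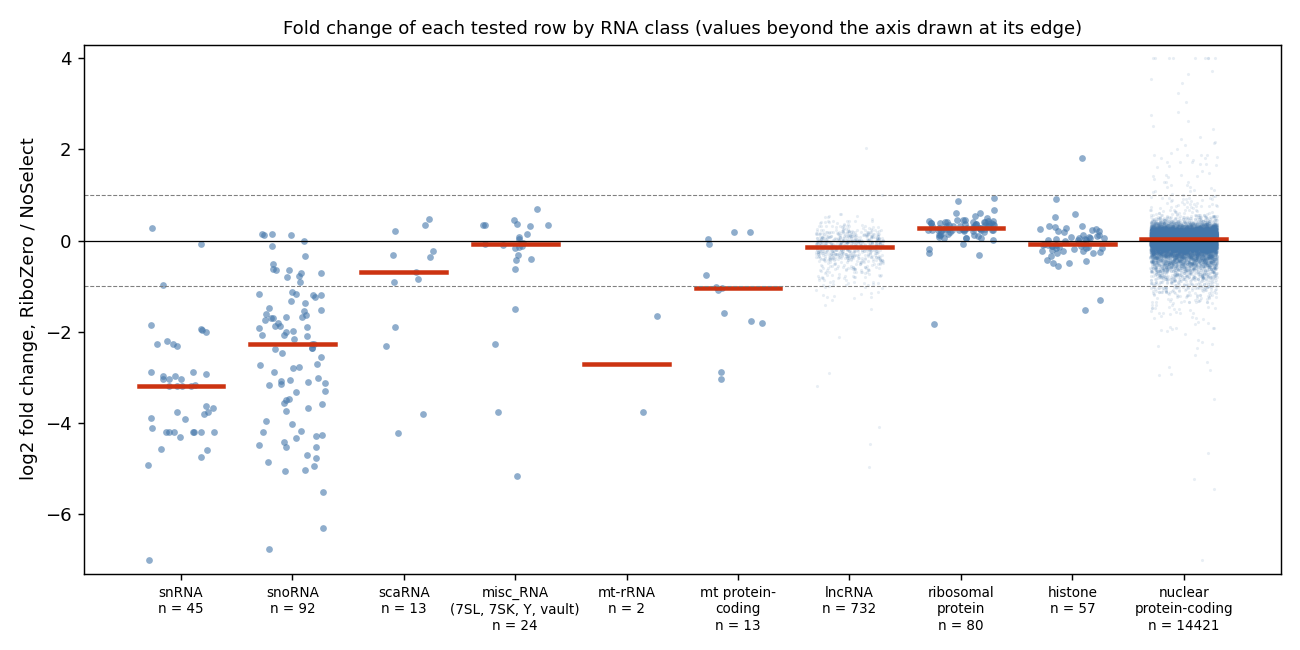
Log2 fold change, RiboZero over NoSelect, of each tested row (points) by RNA class, with the class median (red bar); dashed lines mark a change of 1 in either direction. The snRNA median lies at -3.18 and the snoRNA median at -2.26, while that of nuclear protein-coding rows lies at 0.03; 1 snRNA row and 9 protein-coding rows beyond the axis are drawn at its edge.

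Spliceosomal snRNAs fell in sum, 9.70-fold by the median ratio of normalised CPM within a mouse. Together they made up 0.848%, 1.75% and 1.87% (lowest, median, highest) of the counts of a NoSelect library and 0.0964%, 0.184% and 0.220% of a RiboZero library. The RiboZero level was lower in all 8 mice. Of 45 snRNA rows tested, 42 were called lower and none higher, against 2.84% of all rows called lower. The 45 rows carry 31 distinct sequences, of which 28 were called lower. The class median was a log2 fold change of -3.18, against 0.02 over all rows.

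U1, which recognises the 5′ splice site, was summed over 25 rows of its family. It stood at 4652, 8086 and 9334 normalised CPM in NoSelect and at 428, 669 and 837 in RiboZero. No RiboZero library reached the lowest NoSelect library; over all rows, 15.5% did not overlap. U2, which binds the branch site, stood at 2929, 7909 and 8611 in NoSelect and at 409, 945 and 1086 in RiboZero. The median ratio within a mouse was 0.0907 for U1 and 0.129 for U2. The U1 row shown above, Gm22513, fell by 3.62 on the log2 scale (SE 0.0468, adjusted p = 2.78e-14, edgeR). The U2 row Rnu2-10 fell by 3.18 (SE 0.0326, adjusted p = 2.35e-15, edgeR), and Gm23849, Gm23971 and Gm24950 had the same sequence and the same values. Gm24265, the remaining row among the 6 most abundant, is an snRNA of 141 bases that was put in none of the families searched. Families were assigned only by 15-base words shared with a named member, and which snRNA Gm24265 encodes was not looked at further. Gm24265 went from 461, 832 and 936 in NoSelect to 27.4, 45.5 and 56.0 in RiboZero.

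U5, the snRNA that aligns the exons, fell in 5 of 6 rows. Summed over the family, it stood at 107, 375 and 424 normalised CPM in NoSelect and at 5.79, 17.4 and 21.5 in RiboZero, a median ratio of 0.0525. Within it, Gm25313 was called lower, and Rnu5g differed by 0.28 (SE 0.163, adjusted p = 0.161, edgeR). In all, 86.1% of the 31-base words of Rnu5g occur in another gene, and how reads were split between these copies was not tested. Their sum went from 61.1, 228 and 260 in NoSelect to 2.53, 8.08 and 10.9 in RiboZero. In the minor spliceosome, U11 (Rnu11, 134 bases) fell by 4.59 and U12 (Rnu12, 151 bases) by 1.84 on the log2 scale. The groups of Rnu12 overlapped, since its lowest NoSelect value was 24.9 and its highest RiboZero value 30.7. U6, which forms part of the catalytic centre, was near 0 in both preparations: its 190 rows summed to 0.899, 1.91 and 2.75 in NoSelect and to 0, 0.0963 and 0.215 in RiboZero.

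The amount of snRNA differed between mice in both preparations. In NoSelect, the snRNA sum was 8623 normalised CPM in WT mouse 5 and 9524 in KO mouse 5, and between 16450 and 19960 in the other 6 mice. In RiboZero, it was 906 and 1027 in these 2 mice and between 1664 and 2084 in the other 6. The ratio within a mouse stayed between 0.0852 and 0.113 over all 8. The snoRNA sum had the same low mice, 1844 and 1986 in NoSelect against 2972 to 3651 in the other 6. Leaving out both mice gave 42 snRNA and 76 snoRNA rows called lower.

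**Figure D2:**
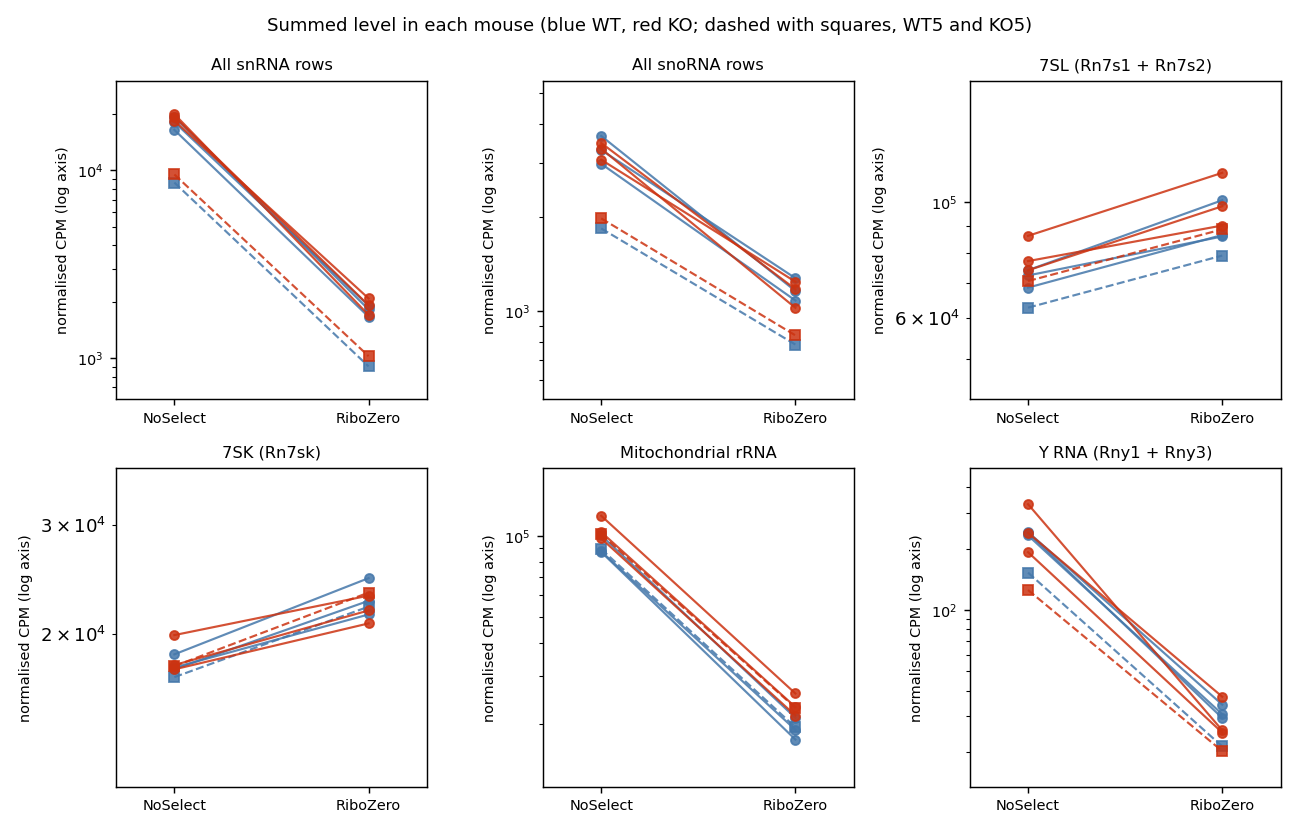
Summed level (normalised CPM, log axis) of 6 RNA groups in the NoSelect and RiboZero library of each mouse, joined by a line (blue, WT; red, KO; dashed with squares, WT5 and KO5). The lines of snRNA, snoRNA, mitochondrial rRNA and Y RNA go down in all 8 mice, while those of 7SL and 7SK go up; WT5 and KO5 lie lowest for snRNA and snoRNA on both sides.

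Most snoRNAs fell as well. Their share of counts was 0.181%, 0.301% and 0.354% in NoSelect and 0.0833%, 0.116% and 0.133% in RiboZero, and it was lower in RiboZero in all 8 mice. Of 92 snoRNA rows, 76 were called lower and none higher, with a median log2 fold change of -2.26. When each library had to hold 10 counts or more, 47 snoRNA rows were left, of which 31 were called lower and the median was -1.50. In 7 of the 92 rows every RiboZero library had 3 counts or fewer; with those at their bound the median was -2.21. All 9 tested C/D box snoRNAs named Snord, a class that mostly guides ribose methylation, were called lower (median -3.73). Of 28 H/ACA snoRNAs named Snora, a class that mostly guides pseudouridylation, 22 were called lower (median -3.06). Their range ran from -6.31 for Snora15 to 0.15 for Snora43.

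Among the most abundant snoRNAs, Snord17 went from 126, 242 and 284 normalised CPM in NoSelect to 45.1, 77.1 and 92.1 in RiboZero. The groups did not overlap, and the row fell by 1.63 on the log2 scale (SE 0.0389, adjusted p = 7.83e-12, edgeR). Gm22988 (144 bases) was at -1.23 and Gm23262 (168 bases) at -2.06, each lower in 8 of 8 mice. Among snoRNA and scaRNA rows that averaged 3 or more in log2 CPM, the lowest values were those of Gm26493 (-5.04), Snord22 (-4.53) and Snora81 (-4.25). Snord22 stood at 44.4, 109 and 155 in NoSelect and at 1.81, 4.66 and 6.44 in RiboZero. U3 (Rnu3b2 and Rnu3b4, identical in sequence) is the snoRNA needed for the first cleavages of the rRNA precursor. Its family sum had a median ratio of 0.461, while its copies Rnu3b1 (0.12, adjusted p = 0.639, edgeR) and Rnu3b2 (-2.26, SE 0.478) differed among themselves. Rnu3b2 and Rnu3b4 were at 0 in the RiboZero libraries of WT mouse 3 and KO mouse 3. In the other RiboZero libraries they stood at 27.3 to 97.2 normalised CPM. Rnu3b1 stood at 163 in WT mouse 3 and 153 in KO mouse 3, against at most 72.1 in the other RiboZero libraries. In all these copies 100% of 31-base words occur in another gene, and how reads were split between them was not tested.

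Snora73a and Snora73b, the pair printed above, also had unlike values. Snora73b went from 195, 229 and 248 normalised CPM in NoSelect to 81.0, 89.1 and 100 in RiboZero (log2 fold change -1.33, SE 0.0385). Snora73a went from 101, 125 and 141 to 97.5, 113 and 122 (log2 fold change -0.13, SE 0.0356). Their sum stood at 296, 356 and 386 in NoSelect and at 179, 201 and 222 in RiboZero, a median ratio of 0.581. In Snora73a 85.1% of 31-base words occur in another gene, and in Snora73b 45.1%.

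Cajal body RNAs had a summed level near that of NoSelect, with a median ratio of 1.02. The scaRNA rows together held 0.0412% of NoSelect counts and 0.0449% of RiboZero counts (medians). Of 13 rows, 4 were called lower and none higher, and the median was -0.69. Scarna13 (275 bases) was higher by 0.48 (SE 0.0349, adjusted p = 1.52e-07, edgeR), at 29.4, 31.9 and 34.995 normalised CPM in NoSelect and 41.4, 44.8 and 50.025 in RiboZero. Scarna2 (414 bases) and Gm22009 (343 bases) were higher by 0.34 and 0.20.

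The RNAs of RNA polymerase III split. 7SL, the RNA of the signal recognition particle (Rn7s1 and Rn7s2, which share their reads), took 6.18%, 7.06% and 7.89% of NoSelect counts and 8.42%, 9.32% and 11.5% of RiboZero counts. After scaling it was higher by a median ratio of 1.26, in 8 of 8 mice. 7SK (Rn7sk), which holds back the elongation factor P-TEFb, stood at 17074, 17735 and 19942 normalised CPM in NoSelect and at 20820, 22392 and 24610 in RiboZero, a log2 fold change of 0.32 (SE 0.0211, adjusted p = 6.02e-08, edgeR). The RNA of RNase P (Rpph1) differed by -0.03 (adjusted p = 0.641, edgeR), with 3 of 8 mice lower. The RNA of RNase MRP (Rmrp) was lower by 0.52 on the log2 scale, short of a call.

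The short RNAs of this group were all called lower. Vaultrc5, the vault RNA, went from 95.2, 279 and 352 normalised CPM in NoSelect to 3.20, 7.16 and 9.30 in RiboZero, a log2 fold change of -5.16 (SE 0.0461, adjusted p = 1.14e-15, edgeR). Rny1 and Rny3 are Y RNAs, which bind the Ro protein. Rny1 (112 bases) went from 69.9, 143 and 190 to 5.63, 9.53 and 13.9, and Rny3 (102 bases) from 55.1, 90.7 and 141 to 13.95, 18.0 and 23.4. Neither pair of groups overlapped. The tested 5S rRNA rows of the list were lower in every mouse, and no RiboZero library had more than 3 counts of any of them. The copy n-R5s106 was at 0 in all 8 RiboZero libraries and at 0.974, 2.37 and 2.67 in NoSelect, at least 13.0-fold lower against a floor of 3 counts per library.

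Rny1, chr6:47788069-47788180 (-): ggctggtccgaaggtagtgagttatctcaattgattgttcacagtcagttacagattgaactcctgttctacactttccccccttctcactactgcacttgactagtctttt
mmu-miR-6236, chr9:110281353-110281371 (+): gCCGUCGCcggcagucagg
Rny1 stands for the short RNAs called lower, and the other sequence is the mature miRNA of the only miRNA row tested, from RefSeq on GRCm38.p6, with its seed (bases 2 to 8) in capitals. That row, Mir6236 (123 bases), stood at 97.5, 121 and 139 normalised CPM in NoSelect and at 0.155, 0.290 and 0.344 in RiboZero. Its log2 fold change was -8.76 (SE 0.0489, adjusted p = 1.73e-17, edgeR), and no library of one kind came near the other. In NoSelect it stood at 102.9 in WT mouse 5 and 112.3 in KO mouse 5, within the 97.5 to 139 of the other mice. Vaultrc5 stood at 99.9 and 95.2 in these mice, against 235 to 352 in the others. Whether the reads of the Mir6236 row come from the mature miRNA or from rRNA was not tested. The counts by length below include this row.

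Across these classes the change differed between short and long RNAs. Counted once per distinct sequence, 109 of 126 small noncoding RNAs shorter than 200 bases were called lower, with a median log2 fold change of -2.91. Below 200 bases the median did not move one way with length: it was -4.66 under 120 bases, -2.37 from 120 to under 150 and -3.00 from 150 to under 200. From 200 to under 250 bases, 5 of 9 were called lower (median -1.19). From 250 bases upward, 1 of 28 was called lower, Gm22667, near the 2.84% of all rows, and the median was -0.04. These longer RNAs include no snRNA. Those averaging 3 or more in log2 CPM were 6 of 250 to under 300 bases and 7 of 300 and over. Among snoRNAs and scaRNAs alone, the median was -4.85 under 120 bases, -2.12 from 120 to under 150 and -2.76 from 150 to under 200. It was -1.26 from 200 to under 250, -0.34 from 250 to under 300 (4 sequences) and 0.20 from 300 upward (3 sequences). Within these classes, too, the few longest RNAs changed least. Whether length itself sets the change was not tested. None of the 163 sequences was called higher at any length, against 1.17% of all rows, so this count is near the background. Within the snoRNAs and scaRNAs of 120 to under 150 bases alone, 61 of 74 were called lower, and their values ran from -6.77 to 0.15. There, Spearman's rho between log2 fold change and GC content was 0.44 (Pearson's r 0.41), and over all 163 sequences rho between log2 fold change and length was 0.57 (r 0.59). These are descriptions across RNAs of the same 16 libraries, many of which share sequence, and are no test.

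**Figure D3:**
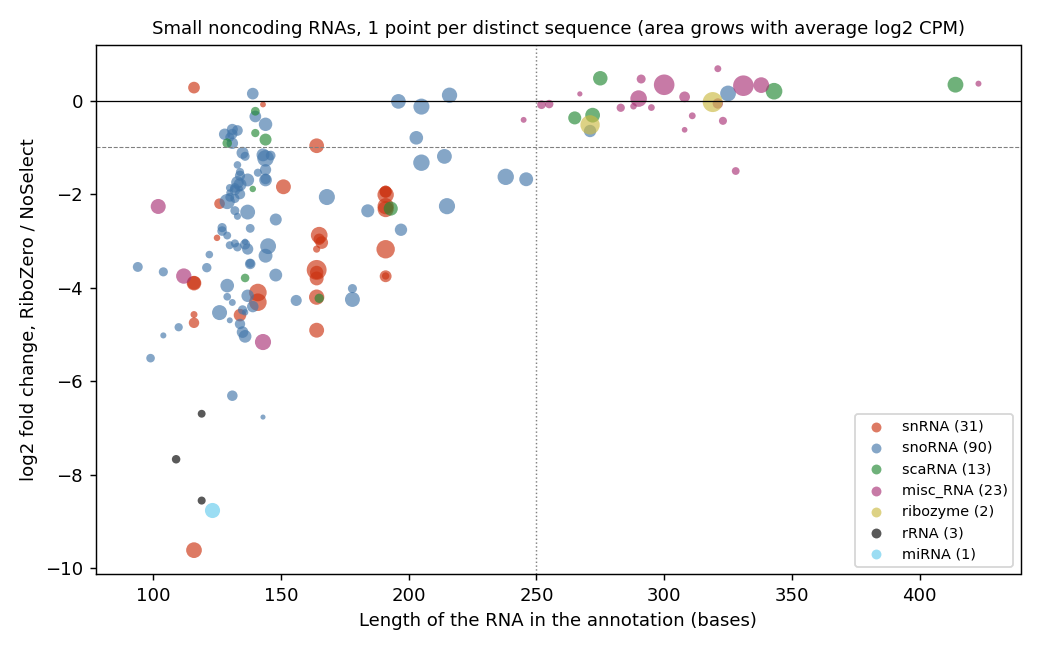
Log2 fold change, RiboZero over NoSelect, against annotated length in bases for 163 small noncoding RNAs, 1 point per distinct sequence, coloured by class, with area growing with average level. Below 200 bases 109 of 126 points are called lower, and to the right of the dotted line at 250 bases 1 of 28 is. The points to the right include no snRNA.

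Mitochondrial rRNA fell from 8.42%, 9.49% and 10.9% of NoSelect counts to 1.83%, 2.23% and 2.62% of RiboZero counts. In normalised CPM its sum was 4.59-fold lower by the median ratio within a mouse. mt-Rnr1, the small-subunit rRNA, fell from 35537, 40554 and 48200 normalised CPM to 2444, 2953 and 3533, a log2 fold change of -3.76 (SE 0.0260, adjusted p = 7.33e-17, edgeR). mt-Rnr2, the large-subunit rRNA, kept more: it fell from 51102, 57996 and 70486 to 15009, 18277 and 22358, a log2 fold change of -1.66 (SE 0.0161). Both groups lay apart.

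The mitochondrial messenger RNAs, which encode subunits of the respiratory chain and of ATP synthase, did not move as a block. Of 13, 8 were called lower and none higher, and the median was -1.04. By adjusted p alone 10 were lower and 3 higher. The cytochrome c oxidase genes stayed near 0: mt-Co1 was at 0.05 (SE 0.0107), mt-Co2 at -0.08 and mt-Co3 at 0.18. mt-Nd3, a complex I subunit, was at 0.20. The genes of the other complex I subunits were lower, with mt-Nd1 at -0.76, mt-Nd4 at -1.58, mt-Nd5 at -1.75, mt-Nd2 at -1.80, mt-Nd4l at -2.89 and mt-Nd6 at -3.04. mt-Cytb (complex III) was at -1.04, mt-Atp6 at -1.08 and mt-Atp8 at -1.02.

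mt-Nd6 is the protein-coding gene of the minus strand. It stood at 71.0, 84.0 and 104 normalised CPM in NoSelect and at 8.66, 10.6 and 12.3 in RiboZero, with no overlap (adjusted p = 3.26e-14, edgeR). mt-Nd4l stood at 111, 123 and 142 in NoSelect and at 15.2, 16.6 and 19.9 in RiboZero. mt-Nd4l overlaps mt-Nd4, mt-Atp8 overlaps mt-Atp6, and mt-Nd5 overlaps mt-Nd6 on the opposite strand. How reads in the overlaps were assigned was not tested. In mt-Nd4l 98.9% and in mt-Nd3 98.1% of 31-base words occur in another gene, against 7.36% in mt-Nd6. The share was 63.9% in mt-Co1, 100% in mt-Co2, 99.9% in mt-Co3, 99.5% in mt-Atp6 and 62.8% in mt-Nd4. It was 0% in mt-Nd1, 6.55% in mt-Cytb, 7.47% in mt-Atp8, 13.5% in mt-Nd2 and 16.8% in mt-Nd5. mt-Co1, mt-Co2, mt-Co3 and mt-Nd3, which stayed near 0, thus share most of their words, as do mt-Atp6, mt-Nd4 and mt-Nd4l, which fell. How reads were split with other genes was not tested. Summed over the 13 genes, RiboZero held 1.07%, 1.18% and 1.26% of counts and NoSelect 1.36%, 1.51% and 1.61%. Scaled to the total count alone, mt-Atp6, mt-Atp8 and mt-Cytb missed the fold threshold (-0.95, -0.90 and -0.91).

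**Figure D4:**
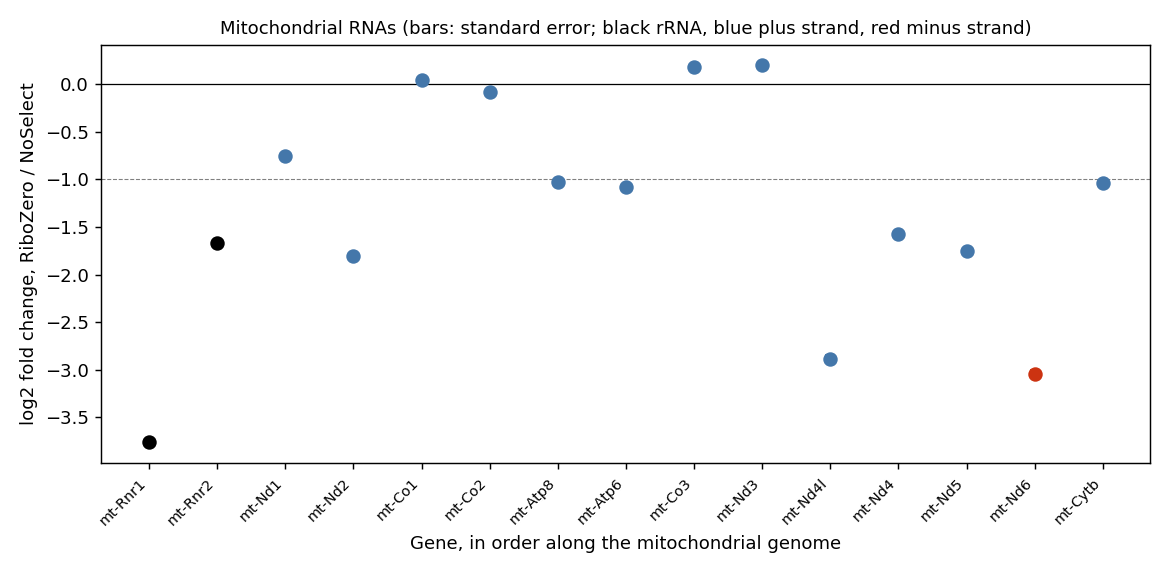
Log2 fold change, RiboZero over NoSelect, with its standard error (bars, mostly smaller than the points) for the 15 mitochondrial RNAs tested, in order along the mitochondrial genome; black, rRNA; blue, plus strand; red, minus strand. mt-Rnr1 at -3.76, mt-Nd6 at -3.04 and mt-Nd4l at -2.89 lie lowest, and mt-Co1, mt-Co2, mt-Co3 and mt-Nd3 lie near 0.

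Nuclear protein-coding genes took a larger share of counts in RiboZero, and few of them were called. Of 14421 rows, 59 were called higher (0.409%) and 164 lower (1.14%), against 1.17% and 2.84% of all rows, and their median log2 fold change was 0.03. They held 70.0%, 72.5% and 74.7% of NoSelect counts and 76.3%, 78.7% and 79.9% of RiboZero counts. TMM scaling centres the bulk of rows, most of which are of this class, so a median near 0 is set by it. Scaled to the total count alone, the median was 0.16, with 71 called higher and 103 lower.

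Most lower calls lay among GC-rich genes. Genes were split into 5 bins of near-equal size by GC content. In the highest bin (55.6% to 71.3% GC) 88 of 2881 were called lower, and in the lowest (30.97% to 43.9%) 10 of 2882. The highest bin also held the most higher calls, 20 of 59, against 5 to 13 in each of the other bins. The median log2 fold change went down from 0.12 in the lowest bin through 0.08, 0.04 and -0.02 to -0.13 in the highest. Within the highest bin the median also varied with length: it was 0.10 for 500 to under 1000 bases and -0.33 for 8000 bases and over. Across 14409 genes Spearman's rho of log2 fold change was -0.37 with GC content (r -0.26) and -0.22 with length (r -0.09), a description across genes of the same libraries. Restricted to genes with under 5% shared 31-base words, the medians of the 5 bins ran from 0.11 to -0.14.

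**Figure D5:**
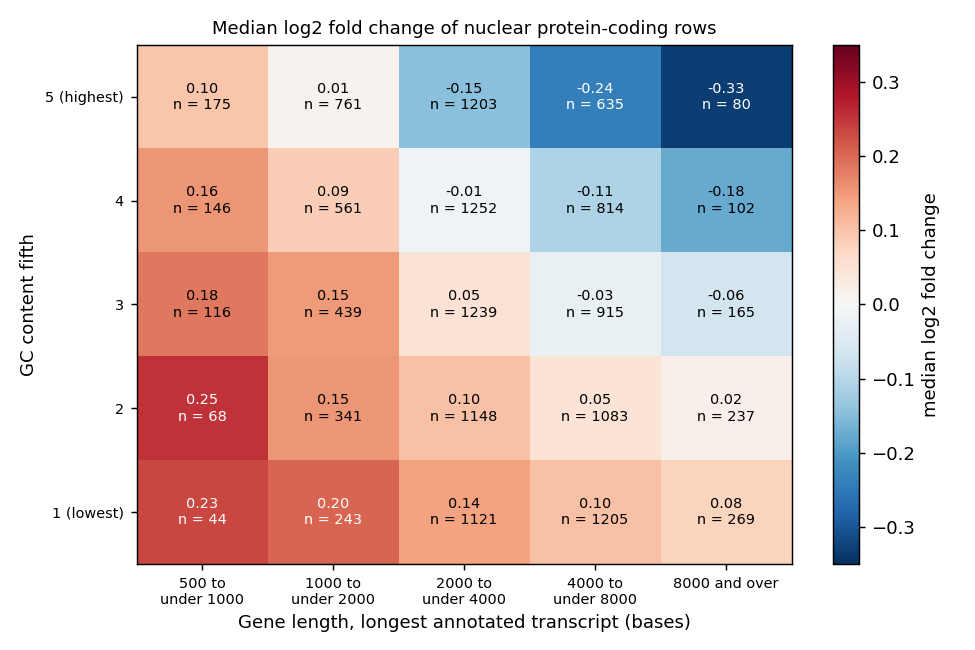
Median log2 fold change, RiboZero over NoSelect, of nuclear protein-coding rows by bin of GC content (rows) and length of the longest annotated transcript in bases (columns), with the number of genes in each cell. The median runs from 0.25 in short genes of the second-lowest bin to -0.33 in the longest genes of the highest bin.

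Agrn, which encodes the basement membrane proteoglycan agrin (chr4:156165290-156197488, minus strand), was among the lowest and shared no 31-base word with another annotated gene. It stood at 332, 357 and 434 normalised CPM in NoSelect and at 43.2, 47.5 and 54.1 in RiboZero. The groups did not overlap, its log2 fold change was -2.93 (SE 0.0192, adjusted p = 5.81e-17, edgeR), and 0% of its 31-base words occur in another gene. Pakap had a lower value (-3.47), but 97.8% of its words are shared with the genes it overlaps. Summed with Akap2 and Palm2 it stood at 774, 846 and 920 in NoSelect and at 731, 794 and 889 in RiboZero, a median ratio of 0.957. Atn1 (-1.90) and S100a11 (-1.89) also shared 83.6% and 48.9% of their words. Rps16, a protein of the small ribosomal subunit, was at -1.83, with 38% shared words.

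Among abundant lower calls with under 5% shared words, a set of 8 chosen after the values were seen, the named genes have varied roles. Setd1b, a histone H3 lysine methyltransferase, was at -1.61 (SE 0.0490, adjusted p = 7.73e-11, edgeR), with 113, 118 and 131 normalised CPM in NoSelect and 33.3, 37.9 and 50.3 in RiboZero. Kdm6b, a histone demethylase, was at -1.48, with 174, 181 and 199 in NoSelect and 54.5, 64.0 and 88.6 in RiboZero. Mbd6, a methyl-CpG binding domain family member, was at -1.69, and Nova2, a neuronal splicing regulator, at -1.49. Nhsl2 (-1.72), Rnpepl1 (-1.55) and Prr12 (-1.47) were the other members of this set, which Agrn leads. Outside any rule, Kmt2d, a further lysine methyltransferase, was at -1.21, and Nkx2-1, the lung lineage transcription factor, at -1.14. The airway mucin gene Muc5b was at -1.12, at 203, 374 and 659 in NoSelect and 83.2, 170 and 319 in RiboZero. Its groups overlapped because the mice differed, yet RiboZero was lower in 8 of 8.

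Among protein-coding gene rows that averaged 5 or more in log2 CPM, 5 were called higher. Trf, which encodes the iron carrier transferrin, was at 1.87 (SE 0.190, adjusted p = 3.06e-06, edgeR). It stood at 70.8, 84.8 and 270 normalised CPM in NoSelect and at 299, 350 and 399 in RiboZero, and the high NoSelect value was that of WT mouse 3. Without this mouse its value was 2.12. Birc6, a large ubiquitin-conjugating inhibitor of apoptosis, was at 1.68 (SE 0.0300, adjusted p = 4.33e-13, edgeR), at 120, 127 and 156 in NoSelect and 384, 422 and 456 in RiboZero, with 0.54% shared words. The zinc transporter gene Slc39a7 was at 1.72, Galnt2, a glycosyltransferase gene, at 1.44, and Nrbp1 at 1.03. Trf, Slc39a7 and Galnt2 shared 63.8%, 76.8% and 88.9% of their words. Nrbp1 missed the fold threshold without WT mouse 4 (0.99) or WT mouse 6 (0.95).

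Some calls lay in rows whose sequence is shared. Of the 59 higher protein-coding calls, 36 had at least 20% of their 31-base words in another gene, as had 1086 of 14409 genes. Of the 164 lower calls, 38 had. The table also lists single transcripts beside the gene rows, and of 980 such rows tested 252 were called, 25.7% (125 higher and 127 lower), against 2.67% of 15845 gene rows. The annotation used matched 328 of 3936 transcript rows. The unmatched rows were not in the search for shared words. A low share of words, as in Agrn, Birc6 or Hspa4l, therefore does not show that no reads are shared with them. Which gene row shares reads with which of the others was not analysed here. Rows at 0 in 1 preparation stand among these calls: Srp54a, a signal recognition particle gene, was at 0 in all 8 NoSelect libraries and at 19.1, 23.7 and 26.5 normalised CPM in RiboZero, at least 195-fold higher. In the gene Srp54a 72.5% of words are shared, and Srp54c differed by 1.88. Hspa4l, a heat shock protein gene with 0.64% shared words, was also near 0 in NoSelect (0 to 0.117) and stood at 21.6, 26.0 and 33.3 in RiboZero.

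Few protein-coding genes carry a stretch of the rRNA sequences searched, which did not include 28S rRNA. Of 24 protein-coding rows with a 20-base word of 5S, mitochondrial or rDNA-locus RNA on either strand, none was called by edgeR with an adjusted p under 0.05 and the fold threshold, and their median was -0.09. Of 14385 rows without such a word 0.410% were called higher and 1.14% lower, so a count of 0 among 24 is near the background. By adjusted p alone 12 of 24 were lower, against 27.1% of protein-coding rows without such a word. The 6 with at least 80 such words ranged from -0.47 (Slco2a1, a prostaglandin transporter gene) to 0.18 (Hddc2). Tmem38b, with 100 words of 5S rRNA, stood at 19.993, 21.5 and 25.6 normalised CPM in NoSelect and at 15.3, 17.5 and 19.5 in RiboZero (log2 fold change -0.31, SE 0.0372).

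Ribosomal protein messages were slightly higher as a list. Of 80 tested, none was called higher and Rps16 alone was called lower, against 1.17% and 2.84% of all rows. These counts are near the background. By adjusted p alone 71 were higher and 3 lower, against 32.0% and 27.9% of all rows, and the median was 0.28. Rpl13a had the highest value among abundant members (0.93, SE 0.0580), followed by Rpl13 (0.86) and Rpl10 (0.68), while Rpl29 was at 0.07. These genes shared 26.8% (Rpl13) to 44.5% (Rpl29) of their 31-base words with another gene, and Rps16 shared 38%. By adjusted p alone, 45.7% of all protein-coding genes with at least 20% shared words were higher and 19.4% lower. Replication-dependent histone genes, whose messages lack a poly(A) tail, had a median of -0.08 over 57 rows, with 1 called higher (1.75%) and 2 lower (3.51%), near the shares of all rows. Hist1h1c was at 0.23 and Hist1h4h at -0.16 (adjusted p = 0.0787, edgeR). The 4 globin genes, which mark residual blood, ran from -0.25 (Hba-a1) to 0.25 (Hbb-bs). None was called, against 4.01% of all rows, so this count is near the background.

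Long noncoding RNAs had a median below 0. Of 732 gene rows, 1 was called higher and 22 lower (3.01%, near the 2.84% of all rows), with a median of -0.13. Malat1, the abundant nuclear speckle RNA, stood at 26030, 26578 and 27823 normalised CPM in NoSelect and at 25159, 26530 and 27417 in RiboZero, and did not pass the test (-0.01, adjusted p = 0.332, edgeR). Neat1, the paraspeckle scaffold, was at -0.25 and Meg3 at -0.80. Xist, which coats the inactive X chromosome, was at -0.65 (SE 0.0221, adjusted p = 1.82e-10, edgeR), with 1699 to 1889 in the NoSelect and 1070 to 1231 in the RiboZero libraries of the 7 mice other than KO mouse 6. Gas5, a snoRNA host, was at 0.32. None of 10 snoRNA host RNAs was called, against 4.01% of all rows, so this count is near the background. The telomerase RNA Terc (423 bases) was at 0.36 (adjusted p = 0.125, edgeR). The 4 abundant lncRNA calls were Gm20427 (-4.46), Gm21982 (-4.09), a Gm26917 transcript of the rDNA locus (-3.14) and Gm44597 (-1.17), and all but Gm26917 shared from 76.75% to 92.93% of their words.

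Markers of lung cells shifted unequally. Of the lung epithelial list, Sftpc (surfactant protein C) was at 0.04 and Scgb1a1 (club cell secretory protein) at -0.15, while Sftpd was at 0.37 and Sftpb at -0.24. In stroma, Col1a1 was at -0.89 (adjusted p = 7.09e-10, edgeR) and Col3a1 at 0.22, so these collagens differed in direction. Among leukocyte markers, the T cell gene Cd3e was at -0.89 and the B cell gene Cd79a at -0.66, while the pan-leukocyte gene Ptprc was at 0.30. None of these passed the fold threshold.

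A test of whether the change differed between genotypes called 1 row. In the interaction of genotype and preparation, 1 of 16825 rows (0.00594%) had an adjusted p under 0.05 with edgeR, and 683 had an unadjusted p under 0.05 (4.06%). The row, ENSMUST00000006570, is a transcript without a match in the annotation. It was at 0 in all 4 RiboZero libraries of KO mice, against 3.75 to 5.56 normalised CPM in those of WT mice, and at 4.64 to 9.31 in all 8 NoSelect libraries. A p that misses the threshold does not show that the genotypes were alike.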

How the data were processed

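The deposited table holds estimated counts per gene or transcript row from Salmon (version 1.4.0); UMI-tools 1.1.1 and the build GRCm38 are also named, per the submitters' processing notes, with no further roles given in the sources used here. The expected counts were rounded. All 32 columns matched a sample by title. Members and lists were chosen with earlier results of these data known.

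Row types, lengths and GC content came from GENCODE M21, in which 37735 of 37751 gene rows matched. Totals left out 2 rows (Lars2, a Gm42418 transcript). edgeR 4.0.16 (R 4.3.3; DESeq2 1.42.0 as an alternative) was run with filterByExpr by preparation, TMM scaling, mouse as a block and the quasi-likelihood test. The standard errors are from that fit. On simulated data, 98.5% of 200 rows changed by 2 on the log2 scale were recovered among 16825. Same-mouse libraries deviated together (correlations of 0.392 to 0.596 over 8 mice). No replicate pair agreed within sampling noise. The labels do not say more of the animals. With mouse as a block, p-values rest on how the change between preparations varied over these mice, and not on how their levels differed.

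Named rows were, by average log2 CPM, the 8 highest and lowest protein-coding calls (at least 5), 4 and 4 lncRNA calls (at least 3) with 5 fixed lncRNAs, the 6 most abundant snRNAs and snoRNAs, the 3 extreme snoRNAs, ribosomal protein and histone genes each way, and all tested polymerase III, mitochondrial and globin rows. Others are named after their values were seen. The rows n-R5s118, n-R5s130, n-R5s136 and n-R5s193 are summarised with n-R5s106. Words are all 20- or 31-base stretches of an annotated transcript. No 28S rRNA sequence was used here. Depth is given in the report; floors cover counting error only. Some items are not reported here.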

Additional observations from a re-analysis of the deposited data

Results flagged for a closer look

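In 83 series of log2 ratios over the 8 mice (log2 of RiboZero over NoSelect, with 0.5 CPM added to each), 5 had 1 mouse that stood apart from the rest; chance gives about 1 in 20. For Trf the ratio was 0.27 in WT mouse 3 and 2.03 to 2.19 in the other 7 mice. For Rpl13 it was 0.21 in WT mouse 4 and 0.85 to 1.21 in the others; without this mouse the log2 fold change was 0.95. For Rny1 it was -4.37 in KO mouse 6 and -3.74 to -3.36 in the others, and for Rny3 -3.03 against -2.30 to -1.89. Without KO mouse 6, whose NoSelect library is labelled liver, the log2 fold changes of Rny1 and Rny3 were -3.64 and -2.14. The median ratio of nuclear protein-coding rows was 0.0083 in KO mouse 3, against 0.0227 to 0.0301 in the others. For the transcript row ENSMUST00000006570 the change between preparations differed between genotypes by -10.04 on the log2 scale (KO minus WT, adjusted p = 0.00178, edgeR); this fitted value rests on 4 libraries at 0 and is no bound.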

How the results depend on the processing

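The 675 calls (197 higher, 478 lower) became 1109 (378 and 731) with no filter on low counts, 313 (68 and 245) with at least 10 counts in every library, 425 (73 higher) with gene identifiers alone, and 185 (21 and 164) in gene rows with under 5% shared words, an alternative chosen after seeing the data; the higher share of calls went from 29.2% to 17.2% and 11.4% in the last 2. Without the replicate block they were 641, with DESeq2 705, and with all 20 libraries 690. Leaving out 1 mouse gave 664 to 702 calls, 195 to 206 higher and 465 to 496 lower. The snRNA median ran from -3.20 to -3.16 without 1 mouse; the snoRNA median ran from -2.40 to -2.17, was -1.50 with 10 counts in every library, where fewer rows were tested, and was -2.56 with under 5% shared words. The protein-coding median (0.03) was 0.027 to 0.034 without 1 mouse, 0.16 when scaled to the total count alone, 0.041 without the filter and 0.021 without mitochondrial and rRNA rows; total-count scaling moved the median of all rows from 0.02 to 0.15. The genotype interaction had 0 calls with 10 counts in every library (681 rows at an unadjusted p under 0.05, edgeR), 2 without KO mouse 3 or KO mouse 4, and 1 otherwise, DESeq2 included. Among 80 named rows under 21 settings, 8 values lost and 1 gained a call, all through the fold threshold, and no called row changed sign. Without the mouse labelled liver, 42 snRNA and 76 snoRNA rows were called lower. Depth limits rows near 3 counts per library, and the split of reads between near-identical copies was not tested.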
